A study of Mus musculus with 19 samples.

Results

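The 31 genes described here make cholesterol, control that synthesis or move sterols through the cell, and they were measured by RNA sequencing in 19 mouse mammary tumours. They were chosen by name from the 26796 genes of the deposited table, with earlier results of these data known. They comprise 7 enzymes of the early mevalonate steps (Acat2, Hmgcs1, Mvk, Pmvk, Mvd, Idi1, Fdps), 11 enzymes of the squalene and sterol steps (Fdft1, Sqle, Lss, Cyp51, Tm7sf2, Msmo1, Nsdhl, Hsd17b7, Ebp, Sc5d, Dhcr7) and 6 genes that control the transcription factor SREBP2 (Insig1, Insig2, Scap, Srebf2, Mbtps1, Mbtps2). The rest are 3 genes of lysosomal release (Npc1, Npc2, Lipa), 3 of transport and esterification (Stard4, Soat1, Nceh1) and Ggps1 of the geranylgeranyl branch. Some well-known genes of the pathway are not analysed here.

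The tumours were of Met1, a transplantable mouse mammary carcinoma line, and were grown in mice given extracellular vesicles shed by neutrophils. In 1 group the neutrophils had been treated with the vehicle DMSO (9 tumours), in the other with 27-hydroxycholesterol, 27HC (10 tumours). All 19 tumours therefore received neutrophil vesicles, and there is no tumour without vesicles among them. The sources used here do not give the dose, route and timing, the strain, sex and age of the mice, or whether any mouse carried more than 1 of the tumours, so the p-values measure the spread between these samples.

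Cells keep their sterol level by feedback. SREBP2, the product of Srebf2, is held in the endoplasmic reticulum by Scap and the Insig proteins while sterols are plentiful. When sterols run low, Scap carries SREBP2 to the Golgi, where the proteases encoded by Mbtps1 and Mbtps2 release a fragment that switches on the synthesis enzymes. Oxysterols such as 27HC bind the Insig proteins and can block this release. Cholesterol that arrives in lipoproteins is freed in the lysosome by the acid lipase encoded by Lipa and exported by Npc1 and Npc2. The vesicles, not 27HC itself, were given to the mice in the design as labelled.

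A search of promoter letters was made first, because SREBP2 target promoters are known for a sterol response element close to sites for the cofactors NF-Y (CCAAT) and Sp1 (GGGCGG). RefSeq promoters of the GRCm38.p6 build, 250 bases before to 50 after the gene start, matched 26 of the 31 genes, 15 of them synthesis enzymes. The sterol response core TCACNCCAC, the NF-Y box CCAAT, the Sp1 box GGGCGG and the E-box CACGTG were searched on both strands, and a match of 1 motif may overlap a match of another. TCACNCCAC was found in 1 of the 26 promoters, that of Hmgcs1, against 1.44% of 27025 genes with a promoter of this length. CCAAT was found in 22 of 26 (14 of 15 synthesis enzymes, 41.1% of all genes), and GGGCGG in 22 of 26 (14 of 15 synthesis enzymes, 38.2% of all genes). CACGTG was found in 6 of 26, against 8.09% of all genes. A match describes letters only, and a missing match says nothing about binding.

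The 250 bases before the start of 4 genes are printed here with TCACNCCAC and CCAAT (or its reverse complement) in capitals. Hmgcs1 (chr13:119690101-119690350, plus strand) holds the element TCACCCCAC, whose first base lies 137 bases before the start. Mvk (chr5:114444019-114444268) and Nsdhl (chrX:72918271-72918520) are shown for their CCAAT boxes, of which 5 and 2 lie in the printed bases, and Srebf2 (chr15:82147019-82147268) for its GGGCGG matches, of which 4 lie there. The last 3 were chosen after their letters were seen.
Hmgcs1: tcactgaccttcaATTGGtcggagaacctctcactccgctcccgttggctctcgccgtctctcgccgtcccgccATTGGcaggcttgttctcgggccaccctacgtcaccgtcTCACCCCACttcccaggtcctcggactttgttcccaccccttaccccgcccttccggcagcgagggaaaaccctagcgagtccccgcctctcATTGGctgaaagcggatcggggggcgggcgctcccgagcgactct
Mvk: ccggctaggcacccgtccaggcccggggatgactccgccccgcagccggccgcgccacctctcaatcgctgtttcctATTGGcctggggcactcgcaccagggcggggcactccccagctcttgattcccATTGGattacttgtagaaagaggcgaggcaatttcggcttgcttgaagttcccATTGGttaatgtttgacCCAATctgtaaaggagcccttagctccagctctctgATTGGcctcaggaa
Nsdhl: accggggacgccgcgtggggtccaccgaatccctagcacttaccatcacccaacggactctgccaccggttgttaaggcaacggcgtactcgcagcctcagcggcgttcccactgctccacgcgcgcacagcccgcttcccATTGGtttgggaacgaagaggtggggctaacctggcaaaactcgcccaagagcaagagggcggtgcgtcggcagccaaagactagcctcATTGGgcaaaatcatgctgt
Srebf2: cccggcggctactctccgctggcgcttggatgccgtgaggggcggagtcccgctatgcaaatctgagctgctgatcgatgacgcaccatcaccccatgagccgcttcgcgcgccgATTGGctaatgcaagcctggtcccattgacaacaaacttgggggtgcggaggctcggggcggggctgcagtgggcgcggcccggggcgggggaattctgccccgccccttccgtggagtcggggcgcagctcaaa

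The libraries held 28139419 to 41179056 expected counts each. In 5 of them (DMSO replicates 1_5 and 2_3, 27HC replicates 1_3, 1_5 and 2_3) the count-weighted GC content of the transcripts was 49.82% to 50.01%, against 51.25% to 52.85% in the other 14 (7 DMSO, 7 27HC). These 5 samples were identified from the data, not by any label, and results are given with and without them. Epithelial markers other than Krt18 had medians of at most 6.97 CPM (counts scaled to the normalized library size), that of Cdh1. Epcam had a median of 2.12 CPM and a highest value of 13.2 CPM, Krt5 was at 0 in 3 libraries and Krt19 in 2. Krt18 was plainly present, with a median of 86.9 CPM. In whole tumours, fewer cells of a type and less RNA per cell cannot be told apart.

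All 31 genes passed the filter on low counts, so none was lost. Exons of 7 of them overlap exons of another protein-coding gene, 4 on the opposite strand (Cyp51 with Akap9, Fdft1 with Ctsb, Ggps1 with Arid4b, Npc1 with Rmc1) and 3 on the same (Fdps, Mbtps2, Tm7sf2), so reads could be shared between them. Per kilobase of exon, the highest mean level was that of Npc2, which binds cholesterol inside the lysosome, at 91.8 CPM per kb. Next came genes of SREBP2 control: the site-1 protease gene Mbtps1 (31.2 CPM per kb), Srebf2 itself (28.6 CPM per kb) and Scap (20.5 CPM per kb). Among the synthesis enzymes Ebp, a sterol isomerase (19.5 CPM per kb), Pmvk (17.96 CPM per kb) and Mvd (16.7 CPM per kb) stood highest per kb. The lowest level per kb was that of Tm7sf2, a sterol C14-reductase, at 1.16 CPM per kb, followed upward by Mbtps2 (2.61 CPM per kb) and Lss (2.83 CPM per kb). Across the 14 libraries of higher GC content the log2 level varied least in Mbtps1 (SD 0.11) and most in Idi1 (SD 0.52). The median SD of the 31 genes there was 0.30, against 0.35 over all genes tested.

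No gene of the set differed between 27HC and DMSO tumours at the threshold. In edgeR's quasi-likelihood test 0 of the 31 genes had a Benjamini-Hochberg adjusted p under 0.05, against 0.0% of all 15629 genes tested, and the adjusted p of each of the 31 was 1.0. With limma-voom 0 genes passed as well, while 2 genes outside the set passed in DESeq2. An unadjusted p under 0.05 was reached by 2 of 31, against 2.27% of all genes (354): Cyp51 and Lipa, both lower with 27HC, where 0.979% of all genes were lower at that p. Over the set 20 of 31 log2 fold changes were below 0 (64.5%, against 46.1% of all genes), and the median was -0.05, against 0.01 over all genes. The values ran from -0.37 to 0.13. The precision was enough to bound most changes: the 95% confidence interval lay within a 2-fold change in either direction for 31 of 31 genes (86.3% of all genes) and within 1.5-fold for 24 of 31 (77.4%, against 53.2% of all genes).

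**Figure D1:**
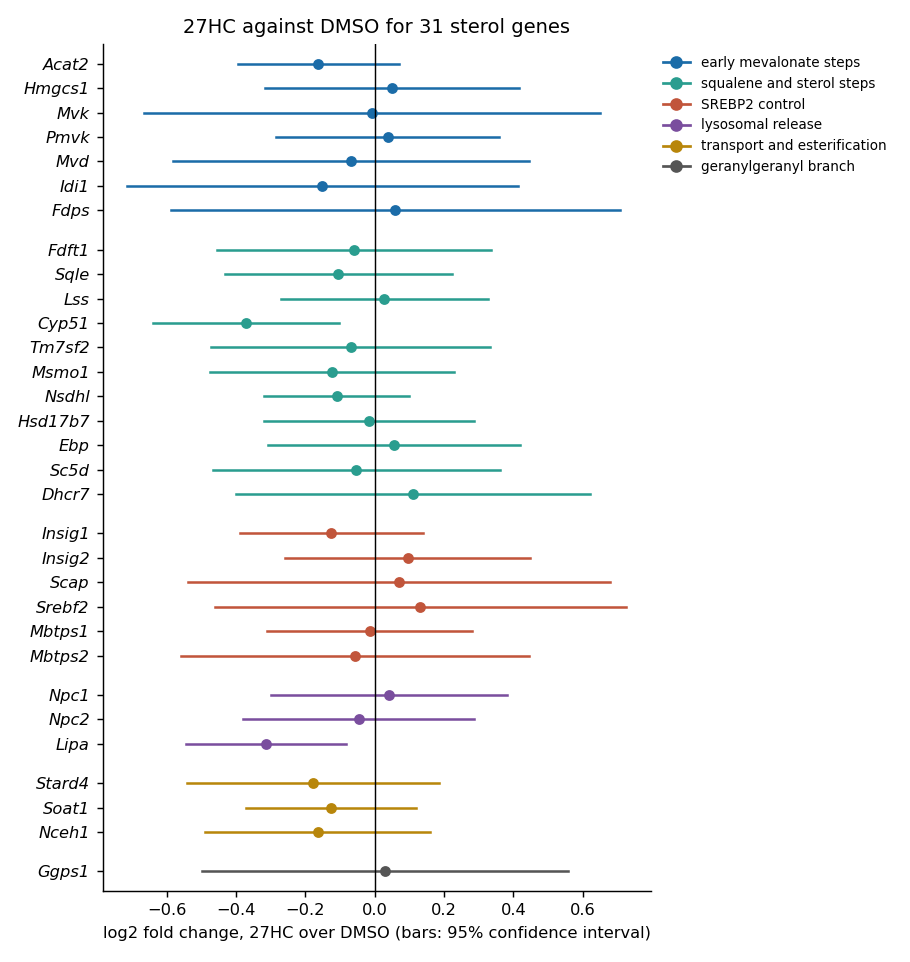
Log2 fold change of 27HC over DMSO (x axis) for each of the 31 genes (rows, coloured by arm of the pathway); points are edgeR estimates and bars their 95% confidence intervals, without adjustment for multiple tests. Points lie between -0.37 (Cyp51) and 0.13 (Srebf2), and the bars of Cyp51 and Lipa are the 2 that do not reach 0.

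The 7 early enzymes, which build isoprenoid units from acetyl-CoA, had a median log2 fold change of -0.01, with 3 above 0 and 4 below. Hmgcs1, the synthase that forms HMG-CoA (ENSMUSG00000093930, GRCm38 chromosome 13, 119690379 to 119708260), had 15.6, 26.6 and 40.9 CPM in the lowest, median and highest DMSO tumour. It had 16.7, 29.0 and 35.1 CPM in the 27HC tumours, all within the DMSO range. Its log2 fold change was 0.05 (SE 0.18, unadjusted p = 0.783). Fdps, which joins isoprenoid units to farnesyl pyrophosphate, had 22.0, 62.8 and 112.3 CPM with DMSO and 22.9, 73.5 and 96.1 CPM with 27HC. The groups overlapped over nearly their whole range, and the log2 fold change was 0.06 (SE 0.31). Idi1, the isomerase between both isoprenoid units, had 4.62, 12.0 and 22.5 CPM with DMSO and 5.75, 9.78 and 18.3 CPM with 27HC, a log2 fold change of -0.15 (SE 0.27). Acat2, the thiolase at the start of the pathway, had the estimate farthest from 0 in this arm, -0.16 (SE 0.11), and 7 of 10 27HC tumours lay below its DMSO median. The kinases Mvk and Pmvk and the decarboxylase gene Mvd had -0.01 (SE 0.32), 0.04 (SE 0.16) and -0.07 (SE 0.25).

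Of the 11 enzymes from squalene to cholesterol, 8 had estimates below 0 and 3 above, with a median of -0.06. Cyp51, the lanosterol demethylase (ENSMUSG00000001467, chromosome 5, 4081145 to 4104746), had 21.7, 30.02 and 39.2 CPM in the lowest, median and highest DMSO tumour. With 27HC these were 16.0, 24.8 and 27.7 CPM, so that all 10 27HC tumours lay below the DMSO median while the ranges overlapped. The DMSO mean was 30.02 ± 6.33 CPM (SD, n = 9), and the 27HC mean was 23.2 ± 3.45 CPM (SD, n = 10). Its log2 fold change was -0.37 (SE 0.13, edgeR unadjusted p = 0.00918, adjusted p = 1.0), with a 95% interval of -0.64 to -0.10. It was -0.40 (unadjusted p = 0.0100) without the 5 low-GC libraries. Among tumours whose title carries a 1 as the first number it was -0.15, and among those with a 2 it was -0.60.

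The enzymes before and after Cyp51 did not share a lower estimate of that size. Sqle, the squalene epoxidase, had 42.5, 57.2 and 80.6 CPM with DMSO and 35.5, 58.4 and 75.1 CPM with 27HC, a log2 fold change of -0.11 (SE 0.16). Dhcr7, which catalyses the last reduction to cholesterol, had 38.4, 90.6 and 116.2 CPM with DMSO and 35.8, 96.7 and 127.2 CPM with 27HC, a log2 fold change of 0.11 (SE 0.25). Both genes spanned more than a 1.5-fold range inside each group, and the groups overlapped. Msmo1 and Nsdhl, which remove the methyl groups of lanosterol products, had -0.12 (SE 0.17) and -0.11 (SE 0.10). Fdft1, the squalene synthase, had -0.06 (SE 0.19), Lss, the lanosterol synthase, 0.03 (SE 0.14), and Ebp 0.06 (SE 0.18). The estimates of Tm7sf2, Hsd17b7 and Sc5d were -0.07, -0.02 and -0.05.

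The 6 genes of SREBP2 control had 3 estimates above 0 and 3 below, with a median of 0.03. Srebf2 (ENSMUSG00000022463, chromosome 15, 82147181 to 82205379) had 86.1, 197.6 and 310.9 CPM in the lowest, median and highest DMSO tumour and 85.6, 263.0 and 297.1 CPM with 27HC. The lowest tumours of both groups were low-GC libraries, and both groups covered the same range. Its log2 fold change was 0.13 (SE 0.29, unadjusted p = 0.649), and 0.23 (unadjusted p = 0.203) without those libraries. Scap, the escort protein, had 60.6, 143.2 and 241.4 CPM with DMSO and 60.4, 168.6 and 239.6 CPM with 27HC, a log2 fold change of 0.07 (SE 0.29). Insig1, itself a known SREBP2 target, had 15.2, 28.1 and 37.8 CPM with DMSO and 22.1, 25.3 and 29.7 CPM with 27HC. The 27HC tumours lay within the DMSO range, and the log2 fold change was -0.13 (SE 0.13). Insig2 had 0.10 (SE 0.17), Mbtps1 -0.01 (SE 0.14) and Mbtps2, the site-2 protease, -0.06 (SE 0.24).

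In the lysosomal release arm only the lipase gene had an unadjusted p under 0.05. Lipa (ENSMUSG00000024781, chromosome 19, 34492318 to 34527474) had 85.2, 91.1 and 122.8 CPM in the lowest, median and highest DMSO tumour and 65.0, 80.9 and 101.5 CPM with 27HC. Of the 10 27HC tumours, 8 lay below the DMSO median and 7 below the lowest DMSO tumour. The 3 that did not were 27HC replicates 1_3, 2_3 and 2_5, and the first 2 of these are low-GC libraries. The DMSO mean was 101.8 ± 16.4 CPM (SD, n = 9), and the 27HC mean was 81.9 ± 11.7 CPM (SD, n = 10). The log2 fold change of Lipa was -0.31 (SE 0.11, edgeR unadjusted p = 0.0103, adjusted p = 1.0). Without the 5 low-GC libraries it was -0.43 (unadjusted p = 0.00349), and with a GC correction per library -0.38 (unadjusted p = 0.0749). Npc1, the membrane transporter of this arm, had 0.04 (SE 0.16), and Npc2 -0.05 (SE 0.16).

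Macrophages are rich in Lipa, and their markers were measured beside it. Of 12 macrophage and monocyte markers 11 had log2 fold changes below 0, with a median of -0.14, and 0 passed the test. Their summed level was 2023, 2707 and 3558 CPM in the lowest, median and highest DMSO tumour and 1871, 2258 and 3694 CPM with 27HC, so the ranges overlapped. Of 10 T and NK cell markers 9 were below 0, and their sum had medians of 99.1 CPM with DMSO and 66.6 CPM with 27HC. Across the 14 libraries of higher GC content the level of Lipa had r = 0.66 with the macrophage score and r = 0.66 with the T and NK cell score (0.69 and 0.52 after GC correction). Over all 19 libraries these r were 0.65 and 0.68 as counted but 0.02 and 0.09 after GC correction. Lipa was not tied to these scores alone. In the 14 libraries its r was 0.38 with the endothelial score and 0.34 with the adipocyte score (0.45 and 0.64 after correction). With the fibroblast score it was -0.50 (-0.41 after correction). In the corrected 19 the endothelial and adipocyte r were 0.52 and 0.56. The part of these cells in the lower Lipa values was not tested.

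All 3 genes of transport and esterification had estimates below 0, with a median of -0.17. Stard4, a cytosolic sterol carrier, had 13.0, 18.9 and 25.3 CPM with DMSO and 9.84, 14.5 and 25.3 CPM with 27HC, a log2 fold change of -0.18 (SE 0.18). Soat1, which esterifies cholesterol for storage, had 57.9, 83.8 and 104.2 CPM with DMSO and 62.8, 77.0 and 97.8 CPM with 27HC, a log2 fold change of -0.13 (SE 0.12). Nceh1, which hydrolyses stored esters, had 26.3, 39.4 and 52.9 CPM with DMSO and 26.3, 33.3 and 60.8 CPM with 27HC, a log2 fold change of -0.17 (SE 0.16). In each of the 3 genes 8 of 10 27HC tumours lay below the DMSO median, and the ranges overlapped. Without the 5 low-GC libraries 4 of the 31 genes had an unadjusted p under 0.05, against 6.01% of the 15260 genes then tested, because Stard4 (-0.33, p = 0.0353) and Nceh1 (-0.30, p = 0.0243) joined Cyp51 and Lipa. No gene passed the threshold there (smallest adjusted p over all genes 0.787). Ggps1, which diverts farnesyl units to geranylgeranyl pyrophosphate for protein prenylation, had a log2 fold change of 0.03 (SE 0.25).

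**Figure D2:**
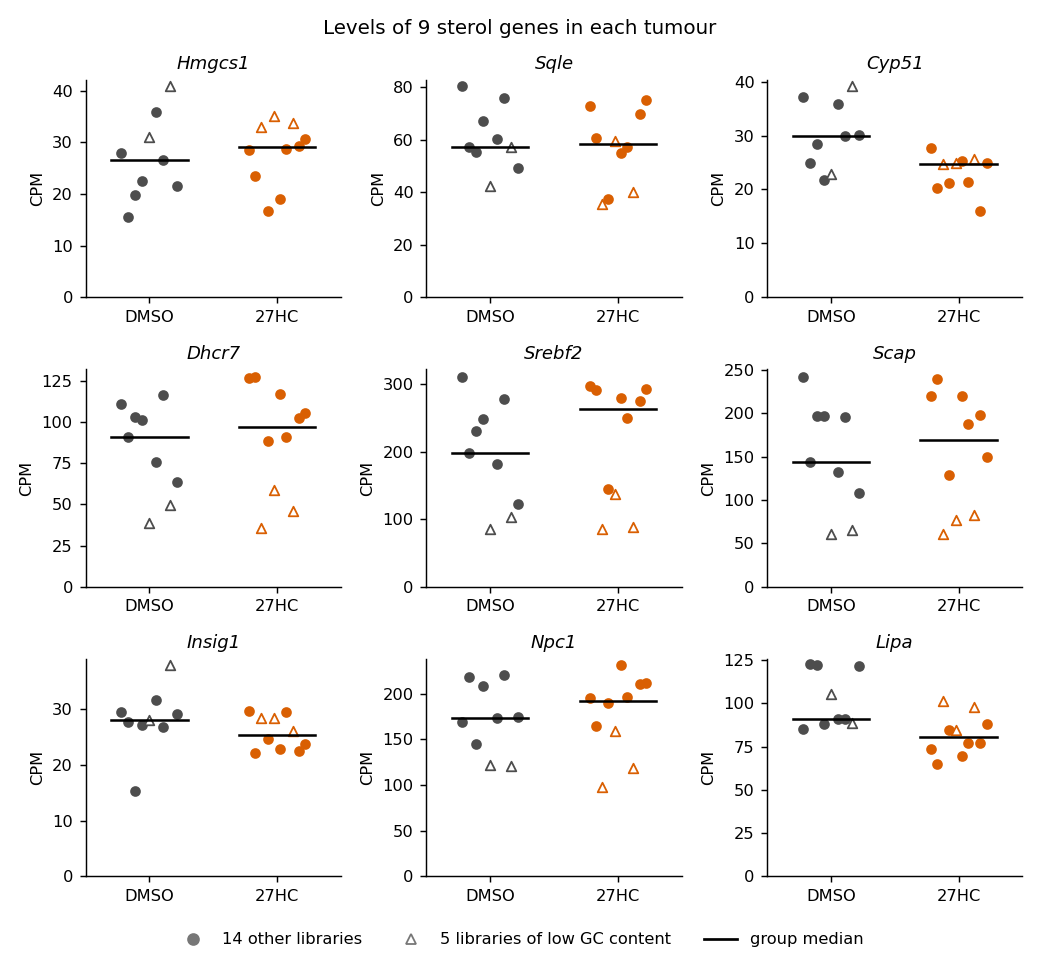
Level in CPM (y axis, from 0) of 9 genes in each DMSO tumour (grey, n = 9) and 27HC tumour (orange, n = 10); open triangles are the 5 libraries of low GC content and black lines the group medians. In Cyp51 all 10 27HC tumours lie below the DMSO median, and in Srebf2, Scap and Dhcr7 the open triangles are the low points of both groups.

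No gene was called in 4 further lists of sterol genes. None of 12 further regulators of sterol sensing and enzyme turnover, 12 further genes activated through sterol response elements, 24 further receptors, transfer and storage proteins or 16 isoprenoid users passed the test. The medians of these 4 lists were -0.04, 0.03, -0.04 and -0.04, and 9 of 12, 4 of 12, 13 of 24 and 9 of 16 estimates were below 0. The genes with the smallest unadjusted p on each side were taken from each list. Rdh11, a retinol dehydrogenase, was the 1 gene of the 4 lists with an unadjusted p under 0.05: it had 23.4, 27.7 and 34.9 CPM with DMSO and 20.2, 24.5 and 27.5 CPM with 27HC, a log2 fold change of -0.24 (SE 0.10, edgeR unadjusted p = 0.0207, adjusted p = 1.0). The others on the lower side were Erlin1 (-0.23, SE 0.14), Vldlr (-0.24, SE 0.14) and the mitochondrial thiolase gene Acat1 (-0.26, SE 0.17). On the higher side they were Lcat, the plasma cholesterol acyltransferase (0.42, SE 0.24), the phosphatidate phosphatase gene Lpin1 (0.23, SE 0.16), the ubiquitin ligase gene Syvn1 (0.22, SE 0.22) and Rabggta (0.11, SE 0.17).

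The titles carry a first number, 1 or 2, which the labels do not explain. The difference between 27HC and DMSO did not differ detectably between these numbers: the interaction passed in 0 of 15629 genes (0.0%), with 223 at an unadjusted p under 0.05 and a smallest adjusted p of 0.911 in edgeR's test. Among the 31 genes the smallest unadjusted interaction p was 0.13. The estimates still turned over with the number, 14 of 31 changing sign among the tumours numbered 1 and 8 of 31 among those numbered 2, as compared with all tumours.

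The 31 genes differed more widely by the GC content of the libraries than by treatment, with mean log2 differences from -1.43 to 1.02 between the 5 low-GC libraries and the other 14. Mvk, the mevalonate kinase, had 8.58, 9.62 and 14.4 CPM in the lowest, median and highest low-GC library and 16.1, 28.6 and 42.9 CPM in the other 14, without overlap. Srebf2 had 85.6, 88.6 and 136.9 CPM in the 5 and 123.4, 263.0 and 310.9 CPM in the 14. In the other direction Ggps1 had 22.9, 24.1 and 26.2 CPM in the 5 and 5.58, 12.8 and 17.0 CPM in the 14. The groups did not overlap for 9 of the 31 genes, against 23.9% of all genes tested. Mvk, Mvd, Dhcr7, Scap, Mbtps1 and Npc2 were lower in all 5, and Sc5d, Mbtps2 and Ggps1 higher. The mean log2 difference was -1.43 in Mvk, -1.38 in Fdps, -1.37 in Scap, -1.26 in Srebf2, -1.15 in Dhcr7 and -1.02 in Mvd, and 1.02 in Ggps1, 0.93 in Idi1, 0.88 in Mbtps2 and 0.75 in Sc5d.

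The difference tended to follow the GC content of the genes. Because the 5 libraries were picked for low GC content, a link in this direction is built into that choice. Of the 9 genes whose transcripts have over 52% GC, 9 were lower in the 5 libraries, and of the 9 under 46% GC, 7 were higher. Across the 31 genes the difference had r = -0.80 with transcript GC content, and across all genes tested r = -0.70. Genes share the same libraries and are not independent, so these r are descriptions. Single genes departed from the pattern, such as Npc1 (47.4% GC, difference -0.65) and Nceh1 (51.4% GC, difference 0.48). The split ran across steps: the neighbouring early enzymes Idi1 (40.6% GC) and Fdps (52.8% GC) differed in opposite directions, as did the paired proteases Mbtps2 (44.3% GC) and Mbtps1 (50.8% GC).

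The 5 libraries also differed from the other 14 in the median level of markers of several cell types. All 8 skeletal muscle markers had a higher mean in them, and their sum was 6.61, 507.3 and 3241 CPM in the lowest, median and highest of the 5, against 3.29, 29.9 and 1220 CPM in the other 14. Of 10 T and NK cell markers 8 were higher, with a sum of 65.0, 120.7 and 131.7 CPM against 44.2, 72.7 and 198.5 CPM. Of 7 epithelial markers 5 were lower, with a sum of 45.0, 68.4 and 104.1 CPM against 79.3, 131.8 and 145.5 CPM. Of 8 proliferation markers 4 were higher and 4 lower, with a sum of 1179, 1261 and 1544 CPM against 629.9, 904.3 and 1179 CPM. The ranges of the first 3 sums overlapped and those of the last met at 1179 CPM. Median sums of fibroblast (2365 against 3053 CPM), endothelial (170.0 against 226.2 CPM) and adipocyte markers (111.2 against 191.2 CPM) were lower in the 5. The median sum of macrophage and monocyte markers was higher (2924 against 2418 CPM), and that of neutrophil markers was close (75.8 against 74.1 CPM). Their ranges overlapped too. The part of all these cells in the differences of the sterol genes was not tested.

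**Figure D3:**
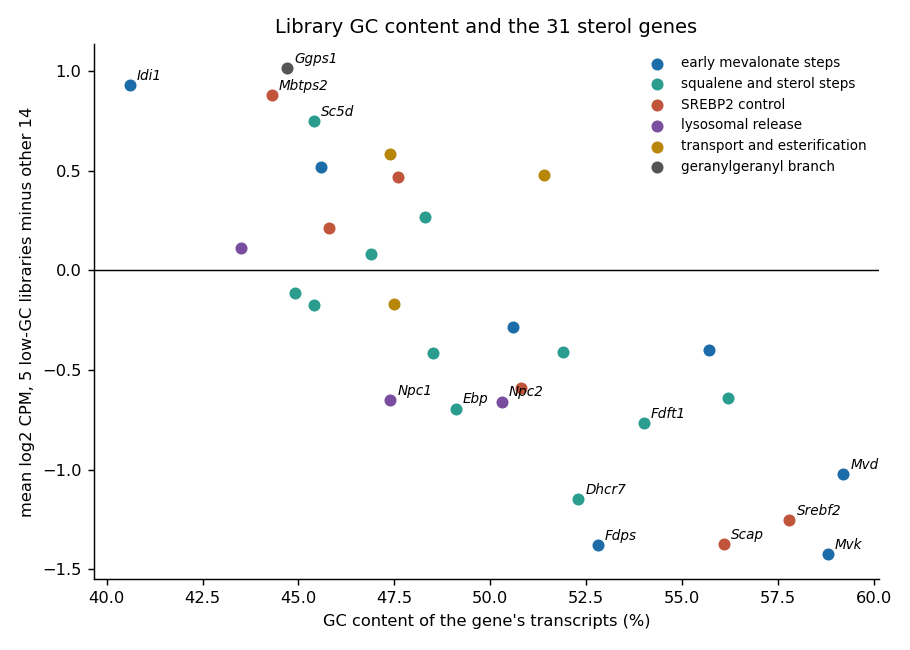
Mean log2 CPM in the 5 low-GC libraries minus the mean in the other 14 (y axis) against the GC content of each gene's transcripts in percent (x axis), 1 point per gene, coloured by arm; genes differing by more than 0.65 are named. GC-rich genes such as Mvk (-1.43) lie low and GC-poor genes such as Ggps1 (1.02) lie high, across arms.

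Co-variation across tumours is therefore given first in the 14 libraries of higher GC content, then with all 19, and then after a GC correction per library. The correction did not remove the split between the 5 libraries and the 14. For this set the range of the log2 differences narrowed, from -1.43 to 1.02 before correction to -1.21 (Fdps) to 0.49 (Nceh1) after it. The set as a whole moved toward lower levels in the 5. Before correction 19 of the 31 genes were lower in the 5, with a median log2 difference of -0.285 (0.091 over all genes tested). After it 24 of the 31 were lower, with a median of -0.46 (-0.05 over all genes tested). Values over all 19 libraries therefore hold that split, corrected or not. The levels of the 18 synthesis enzymes tended to be high or low in the same tumours. In the 14 libraries r was above 0 for 119 of their 153 gene pairs, with a median of 0.27, where 50.3% of all gene pairs were above 0 with a median of 0.00. After GC correction it was 133 of 153 pairs with a median of 0.39 in the 14, and 142 of 153 with a median of 0.54 in all 19. Without correction all 19 libraries gave 100 of 153 and a median of 0.38. The pairs share genes, libraries and depth, so these counts carry no test.

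Each enzyme was also set against a score, the mean z-score of the other 17. In the 14 libraries 17 of 18 enzymes had r above 0 and 10 had r above 0.5. Fdps had the highest (r = 0.82), followed by Sqle (0.79), Fdft1 (0.79), Mvk (0.71) and Mvd (0.71). After GC correction Sqle led with 0.85, with Fdps and Idi1 at 0.84. The enzymes least tied to the others were Acat2 (-0.02 in the 14 libraries and 0.27 after correction, but 0.68 in the corrected 19) and Pmvk (0.14 and 0.11). Cyp51, the enzyme with the lowest 27HC estimate, had 0.31 and 0.47. Of the GC-poor enzymes, Idi1, Hmgcs1 and Sc5d had -0.14, -0.21 and -0.38 over all 19 libraries but 0.60, 0.27 and 0.28 in the 14. Msmo1 (44.9% GC) and Nsdhl (45.4% GC), which are also GC-poor, had 0.65 and 0.74 over all 19 and 0.69 and 0.57 in the 14.

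Both stretches of the pathway moved together in every view. The mean z-scores of the early enzymes and of the squalene and sterol enzymes had r = 0.85 in the 14 libraries, 0.91 after GC correction in the 14, and 0.89 in all 19. By tumour, the synthesis score over the 14 libraries was highest in DMSO replicate 1_1 (1.00), DMSO replicate 2_2 (0.64) and 27HC replicate 1_1 (0.59). It was lowest in 27HC replicate 1_4 (-1.11) and DMSO replicate 2_4 (-0.76). High and low tumours were thus found in both treatment groups.

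The score of SREBP2 control followed that of synthesis, with r = 0.70 in the 14 libraries, 0.76 after GC correction in the 14 and 0.70 in all 19. Within that arm the match lay with Srebf2 (r = 0.81 with the synthesis score in the 14 libraries, 0.80 after correction) and Scap (0.74 and 0.72). Mbtps2 had 0.42 and 0.54, whereas Insig1 had -0.14 and 0.00, Insig2 -0.01 and 0.03, and Mbtps1 -0.02 and 0.34. For Insig1, a known target of SREBP2, the value depended on the libraries used, with 0.55 in all 19 after GC correction and -0.17 in the 19 as counted. Mbtps1 likewise had 0.77 in the corrected 19. DMSO replicate 1_3 had the lowest Insig1 level of its group, 15.2 CPM, while its synthesis score was 0.42.

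**Figure D4:**
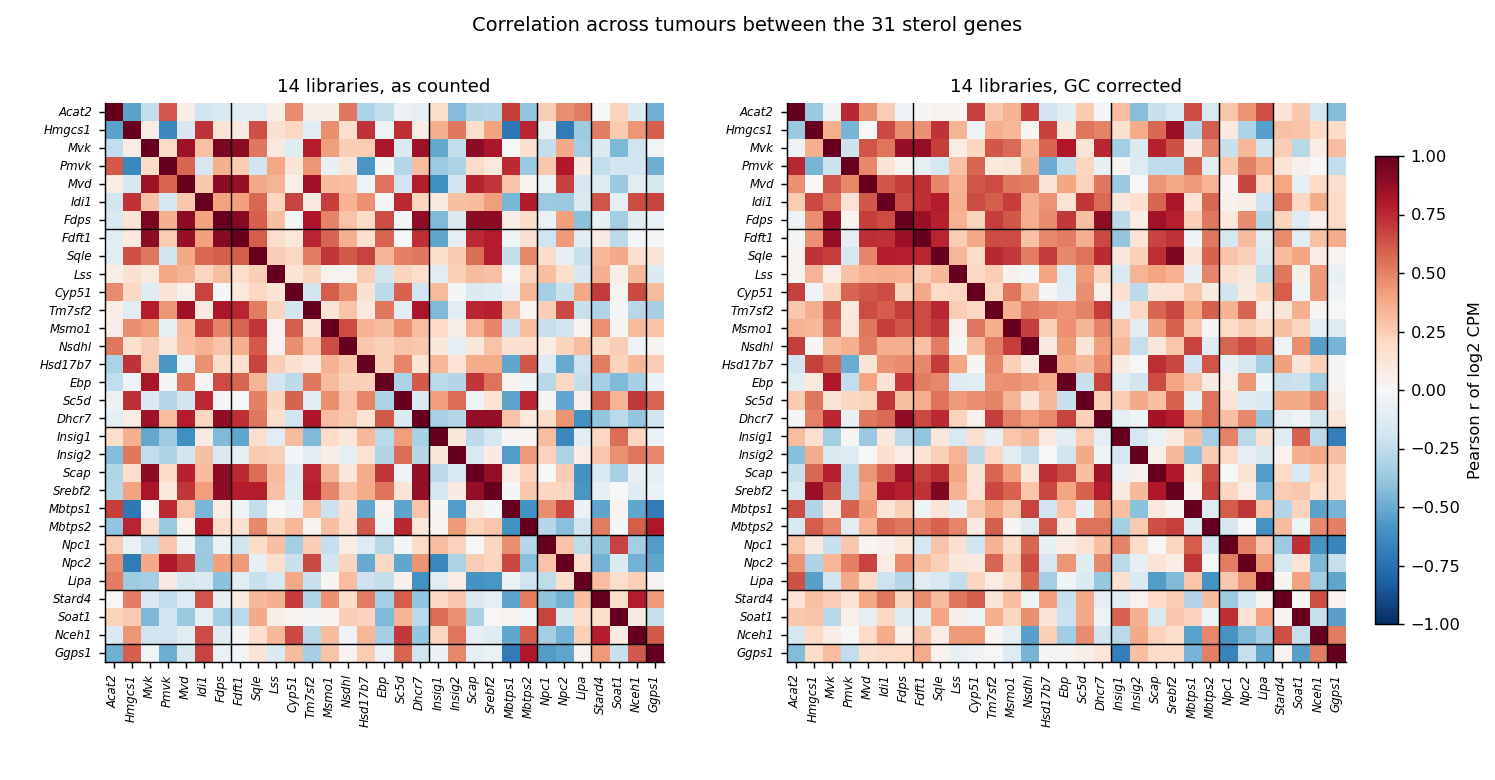
Pearson r of log2 CPM between each pair of the 31 genes (rows and columns, in the same order, black lines between arms) across the 14 libraries of higher GC content, as counted (left) and after GC correction (right). The upper left blocks of synthesis enzymes are mostly red (119 of 153 pairs above 0 on the left, 133 on the right), and the columns of Srebf2 and Scap follow them.

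The r of synthesis with lysosomal release depended on whether the 5 low-GC libraries were included. It was 0.46 in all 19 libraries and 0.72 (rho = 0.66) in the 19 after GC correction, but -0.00 in the 14 and 0.26 in the 14 after correction. Npc1 and Npc2, and Mbtps1, followed the GC content of the libraries even among the 14 (r = 0.81, 0.73 and 0.79). Ggps1 did so in the opposite direction (r = -0.80), and other genes had weaker r, such as Pmvk (0.65) and Stard4 (-0.58). Transport and esterification had r = 0.17 with synthesis in the 14 libraries and 0.36 after correction, and Ggps1 0.09 and 0.02. No order is read from values of this size on 14 points.

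For 14 pairs of genes r was tested by permutation, with p adjusted over the 14 pairs. Some pairs are an enzyme with its regulator or partners of 1 step, and others, such as Hmgcs1 with Npc2, are neither. The pairs were chosen with earlier results of these data known, so these p are not those of pairs chosen blind to the data. In the 14 libraries 2 pairs passed. Srebf2 and Scap, the factor and its escort, had r = 0.88 (permutation adjusted p = 0.00056, n = 14) and Spearman's rho = 0.81 (permutation p = 0.0010). Without the 2 tumours farthest from the median of Srebf2, r was 0.76, and after GC correction 0.80 (permutation adjusted p = 0.0057). In the 14 libraries 0.793% of all genes had an r with Srebf2 at least as high. With their low-GC libraries included, r was 0.98 among DMSO tumours (n = 9, exact permutation adjusted p = 0.00019) and 0.93 among 27HC tumours (n = 10, permutation adjusted p = 0.0029). Srebf2 and Scap transcripts are both GC-rich (57.8% and 56.1%).

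Hmgcs1 and Npc2 went opposite ways, with r = -0.70 (permutation adjusted p = 0.038, n = 14) and rho = -0.67 (permutation p = 0.012), and r = -0.69 without the 2 tumours farthest from the median of Hmgcs1. After GC correction r weakened to -0.31 in the 14 libraries (permutation adjusted p = 0.62) and was 0.17 in all 19. The value of the pair Hmgcs1 with Npc2 thus depended on the correction. Srebf2 and Hmgcs1, the factor and a classical target, did the reverse: r was 0.40 (permutation adjusted p = 0.44) in the 14 libraries as counted and 0.86 (permutation adjusted p = 0.00098) after GC correction. Over all 19 libraries it was -0.33 as counted and 0.79 after correction. The value of this pair therefore rests on the correction, which was chosen after seeing the data.

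With all 19 libraries 8 of the 14 pairs passed, 5 with positive and 3 with negative r, and 6 of these 8 were not past the threshold in the 14. Their permutation adjusted p over 19 tumours ran from 0.00014 to 0.041. Npc1 and Npc2, partners in 1 export step, had r = 0.84 in all 19 and 0.28 in the 14. In the 14 their r was 0.78 without the 2 tumours farthest from the median of Npc1, and after GC correction it was 0.51 in the 14 and 0.92 in the 19. Srebf2 and Npc1 had 0.80 and 0.22, and Fdps and Ggps1, on both sides of a branch point, -0.68 and -0.07. The proteases Mbtps1 and Mbtps2 had -0.79 and -0.59, Stard4 and Hmgcs1 0.71 and 0.52, and Insig1 and Hmgcs1 0.51 and 0.35. Without the 2 tumours farthest from the median of the first gene, the values in the 14 were -0.31 for the proteases and 0.06 for Stard4 and Hmgcs1. The pairs that passed in neither view as counted, besides Srebf2 with Hmgcs1, were Insig1 with Idi1 (0.36 in the 19, 0.09 in the 14), Insig1 with Insig2 (0.19 and 0.11), Srebf2 with Insig1 (-0.36 and -0.17), Npc2 with Lipa (-0.12 and 0.17) and Lipa with Soat1 (0.16 and 0.17).

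GC correction over all 19 libraries changed which pairs passed. Of the 7 that passed, all with positive r, 3 were among the 8 named above (Srebf2 with Scap, Srebf2 with Npc1, Npc1 with Npc2) and 4 were not. The 4 were Srebf2 with Hmgcs1, Npc2 with Lipa (r = 0.79, permutation adjusted p = 9.3e-05), Lipa with Soat1 (r = 0.75, permutation adjusted p = 0.00036) and Srebf2 with Insig1 (r = 0.54, permutation adjusted p = 0.036). In the 14 libraries after correction the last 3 of these had r = 0.44, 0.40 and 0.09 and did not pass, with permutation adjusted p of 0.43, 0.45 and 0.75. As counted and with low-GC libraries included, Npc2 with Lipa had the opposite sign among 27HC tumours, r = -0.77 (n = 10, permutation adjusted p = 0.021). The 3 low-GC libraries of that group had its lowest Npc2 levels (312.3, 402.0 and 339.2 CPM). Among DMSO tumours, low-GC libraries included, the r of this pair was 0.36 (n = 9, exact permutation adjusted p = 0.44).

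**Figure D5:**
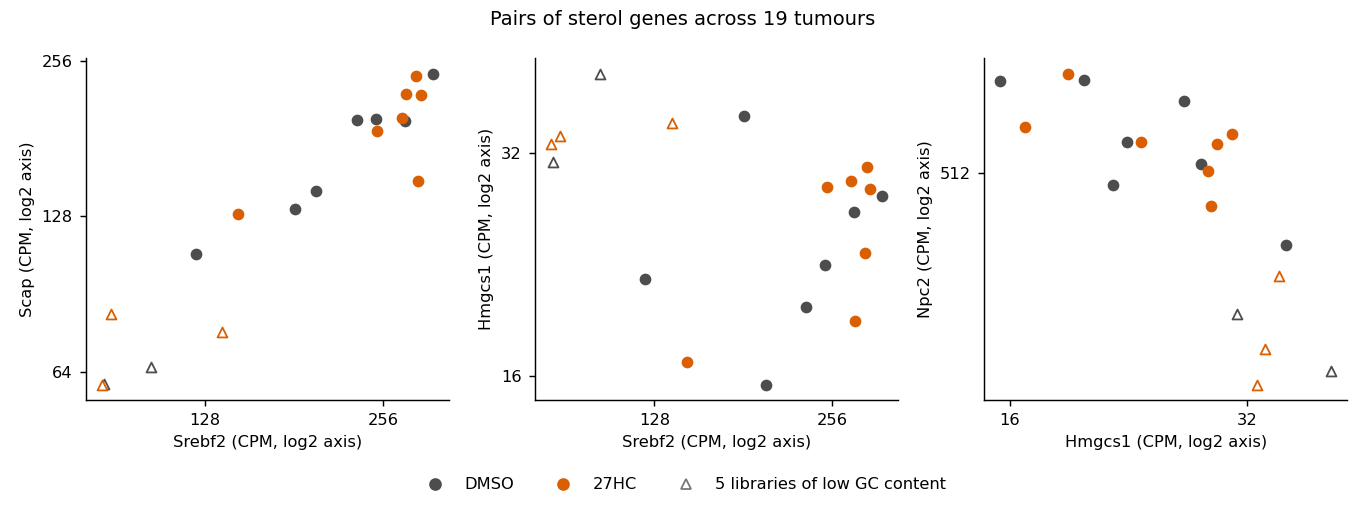
Levels in CPM (both axes log2) of 3 pairs of genes in 19 tumours, grey for DMSO and orange for 27HC; open triangles are the 5 libraries of low GC content. Srebf2 and Scap are high in the same tumours within the 14 other libraries (r = 0.88), Srebf2 and Hmgcs1 do so weakly as counted (r = 0.40), and Npc2 is lower where Hmgcs1 is higher (r = -0.70).

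Cell type scores moved with the arms as well. The synthesis score had r = -0.53 with the macrophage and monocyte score in the 14 libraries (-0.49 after GC correction) and 0.41 with the proliferation score (0.45 after correction). Its r with the fibroblast score was 0.14. With the T and NK cell score it was -0.37 (-0.36 after correction), and with the neutrophil score -0.32 (-0.44 after correction). The SREBP2 control score had r = -0.57 with macrophages and 0.67 with fibroblasts (0.61 after correction). Its r with the T and NK cell score was near that with macrophages, -0.54 (-0.57 after correction). The lysosomal release score had r = 0.68 with macrophages in the 14 libraries, 0.32 after correction and 0.27 in all 19, and it turned to -0.34 in the 19 after correction. Its r with the adipocyte score was 0.68 in the 14 libraries and 0.57 after correction, and single genes differed: Npc1 had 0.58 with adipocyte and 0.79 with epithelial markers, and Lipa 0.34 and -0.12. The part of these cells in the co-variation was not tested.

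Outside the set, the genes whose pattern was most like the synthesis score were sought among 12386 genes over all 19 libraries. Fam83d (r = 0.85 in the 19, 0.75 in the 14) and Cdc20, an activator of the anaphase-promoting complex (0.84 and 0.77), were among the 5 highest, and kept 0.89 and 0.87 after GC correction in the 19. Rgs19 was as high as counted (0.85) but had 0.11 after correction. The lowest were Usp48 (-0.87 in the 19, -0.86 in the 14), Polg2, a subunit of the mitochondrial DNA polymerase (-0.85 and -0.75), Tbc1d8 (-0.84 and -0.81), the ceramide synthase gene Cers6 (-0.84 and -0.77) and Lpin2 (-0.84 and -0.76). For lysosomal release the 5 highest were the transporter gene Abcc1 (0.93 in the 19, 0.84 in the 14), Fbxo7 (0.92 and 0.73), the autophagy gene Gabarapl1 (0.91 and 0.80), the lysosomal protease gene Ctsz (0.91 and 0.90) and Pttg1ip (0.89 and 0.79). Ctsz alone of these 5 lost its r after GC correction (-0.10 in the 19). These are the extremes of 12386 values and describe likeness only.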

How the data were processed

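RNA from 19 whole tumours was sequenced as stranded paired-end poly(A) libraries, per the labels' protocols. The authors deposited expected counts per gene. Build GRCm38 and the tools kallisto 0.44.0, edgeR and limma are listed, per the submitters' processing notes, without the role of each, and whether strand was used in counting is not given in the sources used here. Estimated counts share reads of overlapping or similar transcripts by a model. Columns were matched to samples by title, values were rounded to whole numbers, and coordinates and GC content came from GENCODE M21.

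Groups were compared with edgeR 4.0.16 (R 4.3.3, quasi-likelihood test, TMM, filterByExpr), which kept 15629 of 26796 genes, with Benjamini-Hochberg adjustment over all of them and a threshold of 0.05. CPM are per normalized library size, and scores and correlations use log2-transformed CPM (prior count 2). Correlations were tested with 100000 permutations, or exactly with 9 tumours; the smallest p these 100000 can give is 1e-05. Alternatives were DESeq2 1.42.0, limma-voom, RLE factors, other filters, title numbers as block or covariate or each first number alone, quality weights and leaving out each tumour. Leaving out the 5 low-GC libraries and a loess GC correction per library (span 0.3) were chosen after seeing the data. The fit was tested on simulated counts.

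The 31 genes, the gene lists and the pairs were chosen with earlier results of these data known. All 31 genes are named. Beyond them the rule took, per further list, the smallest p in each direction, and the 5 genes highest and 5 lowest in r with the synthesis score (5 highest for lysosomal release), of which 2 are not reported here. Title numbers shared by both groups did not pair the tumours (closing section).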

Additional observations from a re-analysis of the deposited data

Results flagged for a closer look

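The level of each of the 31 genes was searched in both groups for a tumour set apart from its neighbours by more than Dixon's 95% critical value. Of 62 searches 2 met it, and chance alone gives about 1 in 20. Pmvk, the phosphomevalonate kinase gene, was highest in 27HC replicate 2_1 at 52.7 CPM, with the next 27HC tumour at 36.9 CPM, a gap of 0.519 of the range. Insig1 was lowest in DMSO replicate 1_3 at 15.2 CPM, with the next DMSO tumour at 26.8 CPM, a gap of 0.510 of the range. Neither tumour is among the 5 libraries of low GC content.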

How the results depend on the processing

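None of the 31 genes was called under any alternative, and over all genes DESeq2 called 2 where edgeR, limma-voom and the other fits called 0. The title numbers shared by both groups did not pair the tumours: the correlations of deviations of same-numbered tumours ran from -0.43 to 0.78, 5 of 9 were over 0.1, and 1 of 9 numbers fitted its own partner best. With the number as a replicate block 0 genes were called. The sign of the small estimates depended on the tumours used: it turned in 17 of 31 genes on leaving out some tumour, in 6 with sample quality weights, in 3 without the 5 low-GC libraries and in 0 with GC correction, and it turned under no alternative in 9 (Acat2, Cyp51, Lipa, Msmo1, Nceh1, Nsdhl, Soat1, Sqle, Stard4). Leaving out each tumour gave -0.431 to -0.323 for Cyp51 and -0.379 to -0.275 for Lipa. Of the 14 pairs 8 passed in all 19 tumours, 3 among DMSO tumours alone, 5 among each first number alone and 2 without the low-GC libraries, all of them among the 8. With GC correction 7 passed, 3 of the 8 and 4 others, and with both 2 passed, 1 of the 8 and 1 other. Among 27HC tumours alone, with their low-GC libraries included, 8 passed. Of these 7 also passed in all 19 and 1, Npc2 with Lipa, did not. The r of Hmgcs1 with Npc2 turned to 0.168 with GC correction, and that of Fdps with Ggps1 to 0.197 with both. The r of the synthesis and lysosomal release scores, 0.464 in all tumours, was 0.274 among DMSO tumours, 0.613 among those numbered 2, -0.001 without the low-GC libraries, 0.720 with GC correction and 0.259 with both. The cause of these shifts was not tested.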
